A study of Mus musculus with 4 samples.

Results

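The 9 genes described here are the Gadd45 family (Gadd45a, Gadd45b and Gadd45g), the p53 gene Trp53, and 5 genes that p53 is known to induce (Mdm2, Ccng1, Trp53inp1, Sesn1 and Phlda3). They were chosen by name, from 31053 genes counted in each library. Single thymus cells had been profiled by droplet sequencing on the 10x Genomics platform in 4 FVB/N mice, after lysis of red cells and a sort for viable single cells. The libraries were 1 of a wild type (WT) thymus and 1 of a preleukemic Tal1/Lmo2 thymus, both from mice 6 weeks of age, and 2 of thymi of Tal1/Lmo2 mice, 3 months of age, that had developed acute leukemia of the T lineage (named T-ALL#1 and T-ALL#2). In the Tal1/Lmo2 line both oncogenes are transgenes under the proximal Lck promoter, which is active in immature thymocytes, and the 3 Tal1/Lmo2 libraries share them. Age and leukemia cannot be told apart in these groups.

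p53 is a transcription factor that is held low by Mdm2, the ubiquitin ligase that p53 itself induces, and that accumulates after DNA damage or oncogene stress. Its targets arrest the cell cycle, repair DNA, change metabolism or trigger apoptosis, and immature thymocytes are known for a strong apoptotic response to it. The Gadd45 proteins are small stress proteins that bind PCNA, cyclin B1-Cdk1 and the kinase Map3k4. Gadd45a is a classic p53 target, whereas Gadd45b and Gadd45g are known as genes induced by NF-kB, TGF-beta or cytokines, also in T cells.

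Cells were kept with more than 500 genes and under 10% mitochondrial UMIs (unique molecular identifiers, 1 per counted transcript). In T-ALL#2, deposited with every barcode, a cell also needed at least 3416 UMIs. Called cells in the other files began at 500 to 503 UMIs. This left 4220 WT, 5576 preleukemic, 5773 T-ALL#1 and 1975 T-ALL#2 cells. They held between 24042062 and 70745712 UMIs per library. The median depth ran from 3800.5 UMIs per cell in WT to 17581 in T-ALL#2, and no pair of libraries shared more than 9 barcodes. Tal1 stood at 0 UMIs in WT and at 410, 68.3 and 234 CPM (the UMIs of a gene relative to all UMIs of the same cells) in the preleukemic, T-ALL#1 and T-ALL#2 libraries. Lmo2 stood at 0.915 CPM in WT, 4.48 in preleukemic thymus, 0.368 for T-ALL#1 and 0.276 in T-ALL#2, so both leukemias lay under WT. The WT and preleukemic mice are labelled male, but their libraries held Xist at 1380 and 1869 CPM and only 1 and 5 UMIs of 4 Y-linked genes. T-ALL#1 held Xist at 1932 CPM and 1 such UMI, and T-ALL#2 held Xist at 0.083 CPM and 4413 such UMIs. By these transcripts T-ALL#1 and T-ALL#2 differ in sex, and the part of sex in their differences was not tested. The 4 B cell markers summed to 10.7, 16.1, 5.03 and 4.31 CPM in the order WT, preleukemic, T-ALL#1 and T-ALL#2. Of these, Cd79a was at most 3.89 CPM in any library. In both leukemias Cd79a was higher than in WT and Cd79b was lower. The myeloid marker Lyz2 was at 40.7 CPM in WT and at most 2.33 in the others. The 4 myeloid markers summed to 210, 135, 89.2 and 80.1 CPM in the order WT, preleukemic, T-ALL#1 and T-ALL#2. Most of each sum was Cst3. Cells with at least 1 UMI of Mki67 or Top2a, genes of dividing cells, were called cycling. In the few B or myeloid-like cells (a UMI of at least 3 of 4 markers of one type), whose median depth was 4281 to 6350.5 UMIs, 8 of 20 in WT, 3 of 28 in preleukemic thymus, 5 of 15 for T-ALL#1 and 3 of 9 in T-ALL#2 met this rule. In T-ALL#2 Mki67 stood at 152 CPM in droplets of at most 100 UMIs and at 140 CPM in cells, and Top2a at 147 and 229. The part of free RNA in the calls was not tested. Cycling cells made up 20.6%, 23.8%, 47.9% and 61.9% of cells in the order of libraries given above. The shares were 18.1%, 13.7%, 31.2% and 29.0% in cells thinned to 2000 UMIs. Thinning left out cells under 2000 UMIs here and below, 991 in WT, 350 in preleukemic thymus, 94 for T-ALL#1 and 0 in T-ALL#2.

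Because p53 acts through DNA, the 10-base p53 half-site was searched in RefSeq promoter windows of build GRCm38.p6, which reach from 250 bases before to 50 bases after a start site. The half-site reads the same on both strands by its definition, so 1 search covers both. Of the 9 genes, 8 had a window (all but Trp53inp1), and 5 of these 8 held a half-site, against 9.55% of the 27025 genes in the table. The windows below show each match in capitals with 10 bases on either side, 5′ to 3′ on the strand of the gene.
Gadd45a, chr6:67037428-67037457, minus strand: ggttggctgaGGGCTAGCCCcatatctccg
Trp53, chr11:69580274-69580303, plus strand: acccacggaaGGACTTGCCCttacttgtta
Mdm2, chr10:117710925-117710954, minus strand: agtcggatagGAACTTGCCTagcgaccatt
Ccng1, chr11:40755452-40755481, minus strand: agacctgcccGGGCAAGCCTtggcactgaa
Sesn1, chr10:41887256-41887285, plus strand: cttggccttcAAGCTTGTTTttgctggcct
The first base of the match lay 40, 75, 186, 185 and 173 bases before the RefSeq start site in the order listed. For Sesn1 this start site lies well inside the gene, whose annotated span begins at base 41809935 of chr10. A match is a run of letters in a window, and binding was not measured in these data.

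Gadd45a (chr6:67035096-67037457, minus strand, GRCm38) was counted at 23.2 CPM in WT (exact Poisson 95% interval 21.3 to 25.2), 26.3 in preleukemic thymus (24.8 to 28.0), 12.6 for T-ALL#1 (11.8 to 13.4) and 21.9 in T-ALL#2 (20.4 to 23.4). T-ALL#1 was the low library, at a level 1.84-fold under WT, and the intervals of WT overlapped those of both preleukemic thymus and T-ALL#2. A gene on the other strand, E230016M11Rik, overlaps Gadd45a, and reads of the 2 were kept apart only as far as the authors' counting used strand.

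Gadd45b (chr10:80930073-80932204, plus strand) was counted at 13.8 CPM in WT (12.3 to 15.3), 3.45 in preleukemic thymus (2.91 to 4.07), 3.84 for T-ALL#1 (3.40 to 4.33) and 30.4 in T-ALL#2 (28.6 to 32.3). The leukemias therefore lay on opposite sides of WT, T-ALL#1 at 3.58-fold less and T-ALL#2 at 2.21-fold more, and the preleukemic and T-ALL#1 intervals overlapped. Of the 4 myeloid markers, Lyz2, Tyrobp and Fcer1g moved the same way between the first 2 libraries as Gadd45b. Lyz2 was at 40.7 CPM in WT and 2.33 in preleukemic thymus. The 4 B cell markers summed to 10.7 CPM in WT and 16.1 in preleukemic thymus, with Ms4a1 at 0 UMIs in WT. The part of myeloid and B cells in the Gadd45b level was not tested.

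Gadd45g (chr13:51846678-51848468, plus strand) had the widest range between libraries within the family, at 7.61 CPM in WT (6.55 to 8.80), 3.35 in preleukemic thymus (2.82 to 3.96), 41.3 for T-ALL#1 (39.9 to 42.9) and 22.3 in T-ALL#2 (20.8 to 23.9). No interval overlapped another. Against preleukemic thymus T-ALL#1 stood 12.3-fold and T-ALL#2 stood 6.66-fold higher, and against WT the folds were 5.43 and 2.93. These folds depended on how cells were weighted. In cells thinned to 2000 UMIs the levels were 9.14 CPM in WT, 2.68 in preleukemic thymus, 97.3 for T-ALL#1 and 36.7 in T-ALL#2. With equal weight per cell they were 8.63, 2.87, 105 and 36.6, in the same order of libraries.

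**Figure D1:**
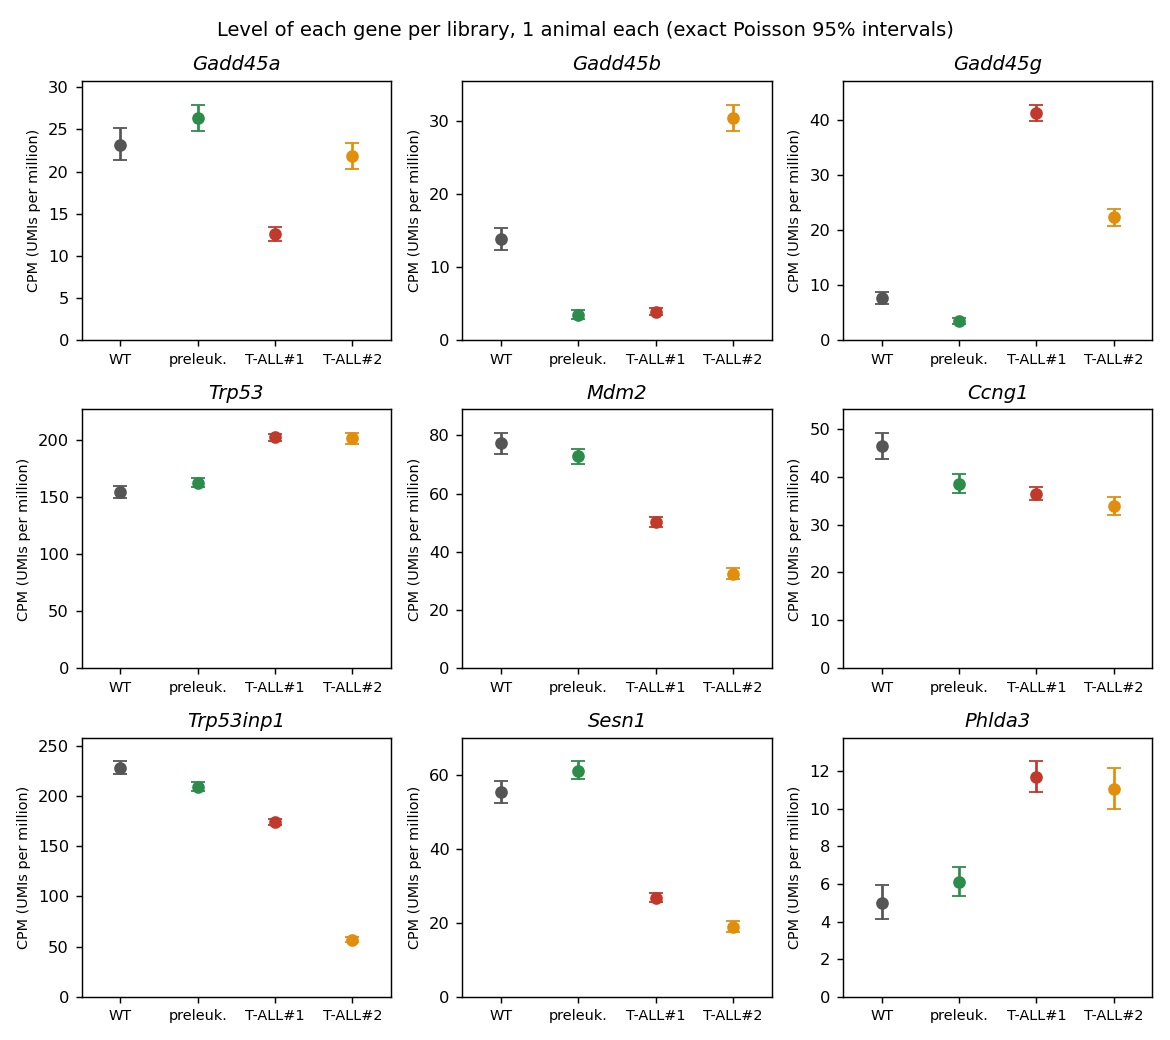
Level of each of the 9 genes in CPM (vertical axis, from 0, own scale per panel) in the 4 libraries (horizontal axis), 1 animal each, with exact Poisson 95% intervals that cover counting error only. Gadd45g is highest in T-ALL#1 at 41.3 CPM, Gadd45b in T-ALL#2 at 30.4 CPM, and Trp53inp1, Mdm2 and Sesn1 are lowest in T-ALL#2.

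Trp53 (chr11:69580359-69591873, plus strand) was counted at 154 CPM in WT (149 to 159), 162 in preleukemic thymus (159 to 166), 202 for T-ALL#1 (199 to 206) and 201 in T-ALL#2 (197 to 206). Both leukemias lay above both other thymi, 1.31-fold and 1.31-fold over WT, and the intervals overlapped within each pair.

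Mdm2 (chr10:117688875-117710758, minus strand), the ligase that degrades p53, ran the other way. It was counted at 77.2 CPM in WT (73.7 to 80.8), 72.8 in preleukemic thymus (70.2 to 75.5), 50.3 for T-ALL#1 (48.7 to 52.0) and 32.4 in T-ALL#2 (30.6 to 34.3). Only the WT and preleukemic intervals overlapped, and T-ALL#2 stood 2.38-fold under WT.

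Among the other targets, Trp53inp1 (chr4:11156431-11174379, plus strand), whose product promotes autophagy and p53-dependent cell death, was counted at 228 CPM in WT (222 to 234), 209 in preleukemic thymus (205 to 214), 174 for T-ALL#1 (171 to 177) and 56.8 in T-ALL#2 (54.4 to 59.4). T-ALL#2 stood apart, 4.01-fold under WT and 3.06-fold under T-ALL#1. Sesn1 (chr10:41809935-41908424, plus strand), a stress-induced inhibitor of mTORC1 signalling, was counted at 55.5 CPM in WT (52.5 to 58.5), 61.3 in preleukemic thymus (58.9 to 63.7), 26.8 for T-ALL#1 (25.6 to 28.0) and 19.0 in T-ALL#2 (17.6 to 20.4). Both leukemias lay under both other thymi, 2.07-fold and 2.93-fold under WT, and no intervals overlapped. Sesn1 overlaps 9930024M15Rik on the same strand, so reads of that annotation could be shared.

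Ccng1 (chr11:40748552-40755311, minus strand), a cyclin-like regulator of Mdm2, was counted at 46.3 CPM in WT (43.6 to 49.1), 38.6 in preleukemic thymus (36.7 to 40.5), 36.4 for T-ALL#1 (35.0 to 37.9) and 33.9 in T-ALL#2 (32.0 to 35.8). On this unscaled CPM the WT interval was apart from the rest and neighbours among the other 3 overlapped. Scaled by TMM, the trimmed mean of M-values, the levels were 39.5, 34.1, 38.5 and 42.4 CPM, and T-ALL#2 was the highest. Phlda3 (chr1:135766119-135769136, plus strand), an inhibitor of Akt signalling, was counted at 4.99 CPM in WT (4.14 to 5.97), 6.12 in preleukemic thymus (5.38 to 6.93), 11.7 for T-ALL#1 (10.9 to 12.5) and 11.04 in T-ALL#2 (9.98 to 12.2). Both leukemias were higher than both other thymi, and the intervals overlapped within each pair.

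Because WT and preleukemic thymus were each measured in 1 animal, no test was made between libraries. A gene was counted as different when its level differed at least 2-fold and the intervals did not overlap, with both leukemias required to differ the same way. From WT to preleukemic thymus 13.0% of the 11305 genes with a mean of at least 1 CPM passed in either direction, 6.09% as higher and 6.88% as lower, and 2 of the 9 genes were lower, Gadd45b (3.99-fold) and Gadd45g (2.27-fold). With mitochondrial shares under 5% Gadd45g was no longer called (6.84 CPM in WT and 3.63 in preleukemic thymus). In both leukemias over WT, 4.57% of genes passed as higher and 14.9% as lower (19.5% in all), and Gadd45g and Phlda3 passed as higher and Sesn1 as lower. Against preleukemic thymus, 4.10% passed as higher and 13.9% as lower (18.0% in all), with Gadd45g higher and Sesn1 lower.

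Scaling bears on these counts. TMM factors raised every difference from WT by 0.31 on the log2 scale in T-ALL#1 and by 0.55 in T-ALL#2. On that scale Sesn1 stood at log2 differences of -0.74 and -0.997 from WT, no longer 2-fold in either. Its call against preleukemic thymus was lost too (-0.94 and -1.19), and Phlda3 passed there as well. The call of Sesn1 against WT was also lost after thinning and with mitochondrial shares under 5%, and that of Phlda3 after thinning. Gadd45a and Ccng1 in T-ALL#2 changed sign against both other thymi under this scaling, and Ccng1 in T-ALL#1 changed sign against preleukemic thymus, so no direction is given for them.

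In T-ALL#2, whose matrix holds every barcode, the levels in cells could be set beside those in 1187985 droplets of at most 100 UMIs. Gadd45g stood at 29.2 CPM in these near-empty droplets (21.9 to 38.2), against 22.3 in cells. Gadd45b stood at 30.3 CPM (22.8 to 39.4) against 30.4 in cells. For 7 of the 9 genes the interval of the droplets overlapped that of the cells, while Trp53 (121 CPM in droplets, 201 in cells) and Ccng1 (22.0 and 33.9) were higher in cells. For the 7 genes that overlapped, the part of free RNA in the counts of T-ALL#2 cells was not tested. The other 3 matrices hold called cells alone, so the same comparison was not made there.

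**Figure D2:**
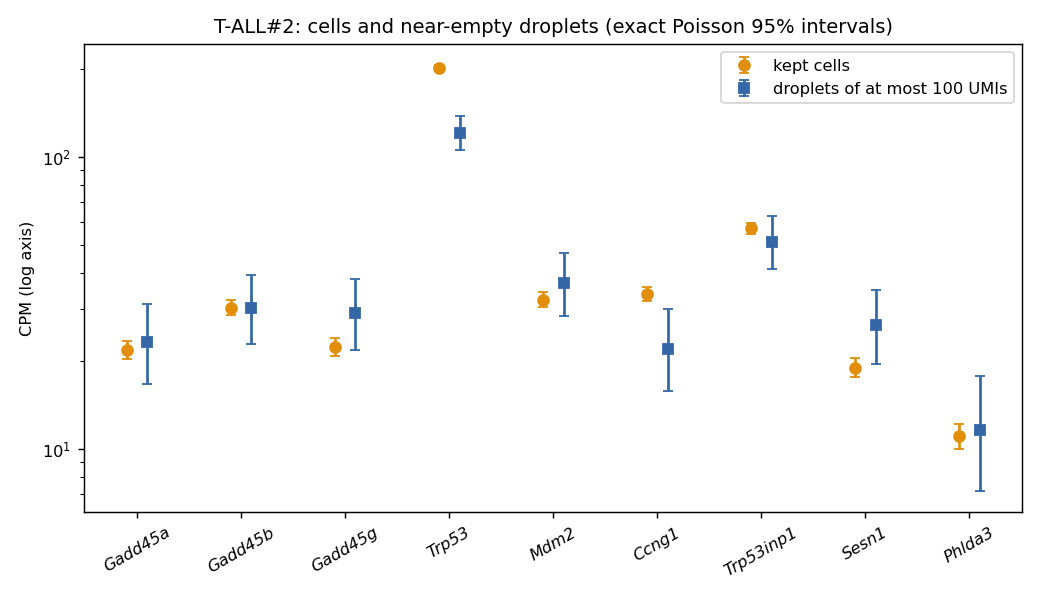
Level in CPM (log axis) of the 9 genes in the kept cells of T-ALL#2 (circles) and in its droplets of at most 100 UMIs (squares), with exact Poisson 95% intervals. Only for Trp53 and Ccng1 do the intervals stay apart, with cells higher.

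Shares of cells with a UMI did not rise with the depth of the library for every gene, but depth could change them where the CPM was close. Gadd45a was detected in 11.2% of WT and 30.3% of T-ALL#2 cells at nearly the same CPM, and after thinning to 2000 UMIs in 6.26% and 5.32%. Thinned, Gadd45g was detected in 1.67% of WT cells (Clopper-Pearson 95% interval 1.26 to 2.18), 0.517% of preleukemic cells (0.341 to 0.751), 13.8% of T-ALL#1 cells (12.9 to 14.7) and 5.92% of T-ALL#2 cells (4.92 to 7.06). The order of the libraries was that of the CPM, with intervals apart. Without thinning, 28.4% of T-ALL#1 cells held Gadd45g at a median of 8742 UMIs, beside 4 of 15 B or myeloid-like cells of that library (26.7%) at a median of 4281. The source of Gadd45g in those cells was not tested.

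Cycling and non-cycling cells were then compared within each library by summing UMIs over each state, which gives 8 sums from 4 animals, with the library as a block in the quasi-likelihood test of edgeR. This asks whether the genes of growth arrest differ with the state of the cell. The 2 states differed widely, with 6243 of 11856 genes called at an adjusted p under 0.05 (52.7%), 26.1% higher and 26.6% lower in cycling cells. Of the 9 genes, 4 fell in cycling cells (Gadd45a, Gadd45b, Trp53inp1 and Sesn1), 2 rose (Trp53 and Phlda3) and 3 did not pass, and their median log2 change was -0.79 beside -0.04 over all genes tested.

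Gadd45a was counted at 13.0 CPM in cycling and 31.5 in non-cycling WT cells, at 14.4 and 36.3 in preleukemic thymus, at 9.33 and 21.4 in T-ALL#1 and at 17.9 and 33.7 in T-ALL#2. In every library the cycling cells were lower, between 1.88-fold and 2.51-fold, with intervals apart. Thinned to 2000 UMIs per cell, the folds were 1.16 in WT and 1.29 in T-ALL#2, both with overlapping intervals, and 3.28 in preleukemic thymus and 2.24 for T-ALL#1. The fitted log2 change was -1.005 ± 0.088 (SE, 4 libraries, adjusted p = 2.69e-04).

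Gadd45b was counted at 5.11 CPM in cycling and 20.8 in non-cycling WT cells, at 2.42 and 4.32 in preleukemic thymus, at 2.73 and 6.83 in T-ALL#1 and at 27.1 and 40.3 in T-ALL#2. The cycling cells were lower in all 4, most in WT (4.06-fold) and least in T-ALL#2 (1.49-fold), where the droplets also held the gene. After thinning the intervals overlapped in preleukemic thymus and in T-ALL#2. The fitted log2 change was -0.99 ± 0.22 (adjusted p = 0.00779). The B cell markers Cd79a (-2.58 ± 0.29) and Cd79b (-1.43 ± 0.34) moved with it and fell. The 4 myeloid markers were all tested and none passed. The part of these cells in the Gadd45b change was not tested.

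Gadd45g was counted at 4.93 CPM in cycling and 9.78 in non-cycling WT cells, at 4.14 and 2.70 in preleukemic thymus, at 17.1 and 107 in T-ALL#1 and at 16.5 and 39.7 in T-ALL#2. The preleukemic library went the other way, with overlapping intervals, and the gap in T-ALL#1 was 6.25-fold. Across the 4 libraries the gene did not pass (log2 change -1.14 ± 0.48, adjusted p = 0.0906). It passed in cells thinned to 2000 UMIs (-1.52, edgeR adjusted p = 1.49e-04) and without preleukemic thymus, among 4 of 12 alternative settings in which it passed. The difference of this gap between both leukemias and both other thymi, a test added after the values were seen, was -1.87 ± 0.71 on the log2 scale (adjusted p = 0.474). In that test 0 of the 9 genes and 3 of 11856 genes (0.0253%) were called by edgeR, and 1248 genes had an unadjusted p under 0.05.

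**Figure D3:**
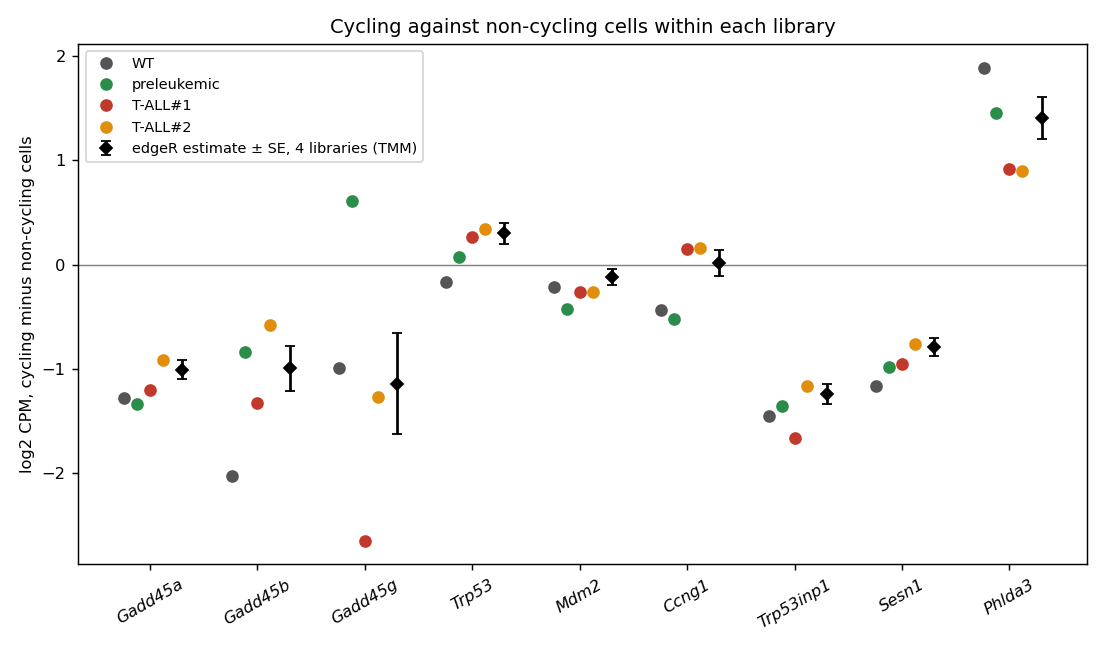
Difference of log2 CPM between cycling and non-cycling cells (vertical axis) for the 9 genes, 1 circle per library, with the edgeR estimate ± SE as a black diamond. Gadd45a, Gadd45b, Mdm2, Trp53inp1 and Sesn1 lie below 0 and Phlda3 above 0 in every library, while Gadd45g, Trp53 and Ccng1 have libraries on both sides. The circles are unscaled CPM and the diamonds carry TMM scaling.

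Trp53inp1 was counted at 117 CPM in cycling and 318 in non-cycling WT cells, at 113 and 290 in preleukemic thymus, at 110 and 346 in T-ALL#1 and at 43.4 and 96.9 in T-ALL#2. Its cycling level was close in the first 3 libraries, and the non-cycling cells were 2.23-fold to 3.15-fold higher in all 4. The fitted log2 change was -1.24 ± 0.09 (adjusted p = 1.84e-04). Sesn1 went the same way, at 33.0 and 73.7 CPM in WT, 40.01 and 79.1 in preleukemic thymus, 21.4 and 41.2 for T-ALL#1 and 16.1 and 27.3 in T-ALL#2, cycling before non-cycling. The fitted log2 change was -0.79 ± 0.08 (adjusted p = 4.86e-04), with intervals apart in each library.

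Trp53 itself was counted at 145 and 162 CPM in cycling and non-cycling WT cells, 167 and 159 in preleukemic thymus, 212 and 177 for T-ALL#1 and 213 and 167 in T-ALL#2. WT was the only library with the lower level in cycling cells, and the preleukemic intervals overlapped. The fitted rise of 0.30 ± 0.10 on the log2 scale (adjusted p = 0.0364) was small, passed in 5 of 12 alternative settings (adjusted p from 0.0128 to 0.475), and was lost without preleukemic thymus, without T-ALL#1 and without T-ALL#2. Mdm2 was lower in the cycling cells of every library, at 70.9 and 82.3 CPM in WT, 61.4 and 82.3 in preleukemic thymus, 47.7 and 57.3 for T-ALL#1 and 30.9 and 37.0 in T-ALL#2. The log2 change of -0.12 ± 0.08 did not pass (adjusted p = 0.232), and it passed as lower in 2 of 12 alternative settings, which were scaling to library totals alone (-0.29, adjusted p = 0.0178) and cycling called from a cell-cycle list (-0.27, adjusted p = 0.0413).

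Phlda3 was counted at 8.37 and 2.26 CPM in cycling and non-cycling WT cells, 9.34 and 3.42 in preleukemic thymus, 13.4 and 7.09 for T-ALL#1 and 12.5 and 6.70 in T-ALL#2. Cycling cells were higher in each, and the fitted log2 change was 1.41 ± 0.20 (adjusted p = 0.00124). Thinned to 2000 UMIs per cell, preleukemic thymus held 4.18 and 4.21 CPM, the log2 change was 0.59, and the call was lost (adjusted p = 0.111). Ccng1 was counted at 38.8 and 52.4 CPM in WT, 31.3 and 44.7 in preleukemic thymus, 37.4 and 33.7 for T-ALL#1 and 34.8 and 31.1 in T-ALL#2. Its intervals were apart only in the first 2 libraries, where cycling cells were lower, and the fit gave 0.01 ± 0.13 (adjusted p = 0.933).

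These calls rest on the block, since both sums of a library come from 1 animal. Without the replicate block 922 genes and none of the 9 were called (edgeR, 2760 genes at an unadjusted p under 0.05), with adjusted p of 0.106 for Gadd45a and 0.0666 for Trp53inp1. Cycling cells were also deeper, with median UMIs of 9866.5 against 3280 in WT and 22654 against 11194 in T-ALL#2. With cells thinned to 2000 UMIs and the state called again, Gadd45a, Gadd45b, Gadd45g, Trp53inp1 and Sesn1 were called as lower. Trp53 and Phlda3 were not called. Scaled to library totals alone the median of all genes was -0.22, with 2286 genes higher and 4366 lower in place of 3093 and 3150.

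Other p53 targets split in both directions between the states, in shares near those of all genes. Of a list of 28 targets, 24 were tested, 7 rose in cycling cells and 6 fell, beside 26.1% and 26.6% of all genes, with a median log2 change of -0.13 beside -0.04 over all genes. The largest rises were of Cdkn1a, the inhibitor p21 of cyclin-dependent kinases (1.62 ± 0.23, adjusted p = 0.00122), and Rps27l, a ribosomal protein paralog that binds Mdm2 (1.07 ± 0.14, adjusted p = 0.00103). The largest falls were of Bbc3, the pro-apoptotic protein Puma (-1.06 ± 0.20, adjusted p = 0.00438), and Fas, a death receptor (-1.05 ± 0.15, adjusted p = 0.00127). Cdkn1a was sparse, at 0.49 to 8.65 CPM per library. Without the replicate block none of the 24 was called, and after thinning 3 of 20 rose and 6 fell.

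**Figure D4:**
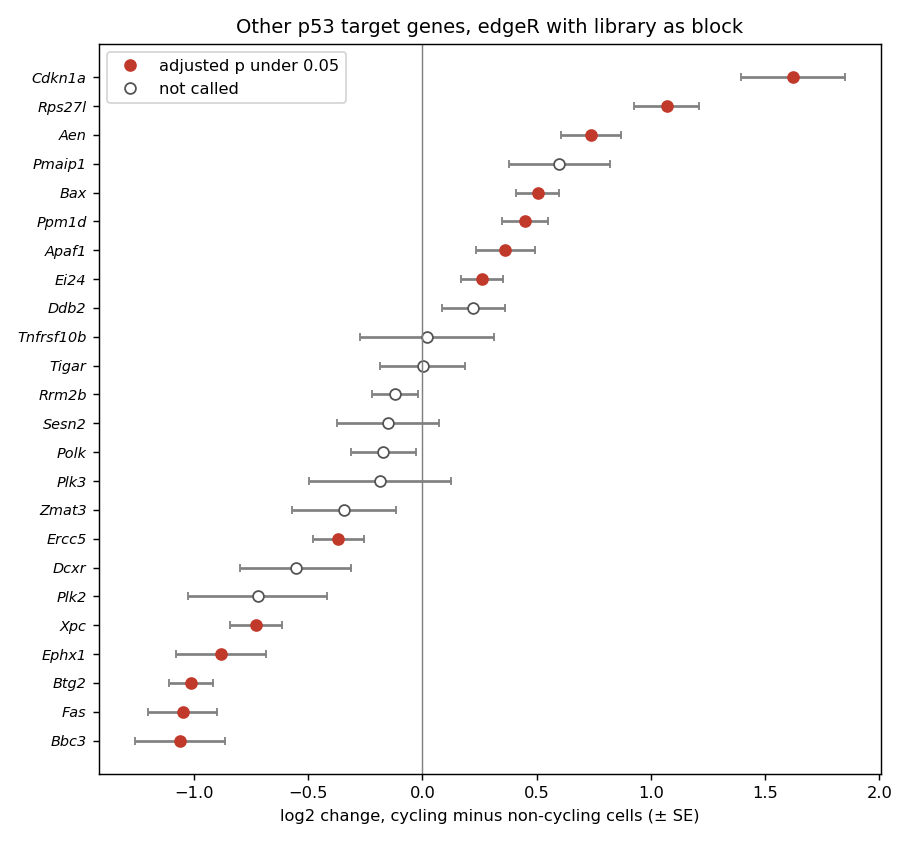
Fitted log2 change ± SE (horizontal axis) of the 24 tested p53 targets outside the 9 genes, cycling minus non-cycling cells, with calls filled and the rest open. Cdkn1a and Rps27l lie highest, Bbc3 and Fas lowest, and 11 of the 24 were not called.

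Of the 12 regulators of p53, 3 rose and 3 fell in cycling cells, a share near the 52.7% of all genes called. Chek1 (2.87 ± 0.38), Cdkn2a (1.97 ± 0.43) and Chek2 (1.72 ± 0.19) rose, the checkpoint kinases and the locus of Arf, an inhibitor of Mdm2, while Mdm4, the partner of Mdm2, fell by 0.61 ± 0.07. Of 10 partners of Gadd45 and stress kinases, 2 rose and 5 fell, to be read against the same share. Ddit3, the stress factor Chop, fell by 0.75 ± 0.09 and Ppp1r15a, also named Gadd34, fell by 0.57 ± 0.10, whereas Gadd45gip1, a mitochondrial ribosome protein that binds Gadd45 proteins, rose by 0.55 ± 0.11 and Map2k3 by 0.53 ± 0.10. The 5 thymocyte markers shifted as well, with Cd3e, Lck and Cd3d lower in cycling cells, and all 18 tested genes of the cell cycle list were higher, as the definition of the state fixes.

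Stage was then read from 3 transcripts, Il2ra (CD25, of early thymocytes and many leukemic cells), Cd4 and Cd8a. Cells with Il2ra and neither coreceptor were 1.28% of WT, 8.34% of preleukemic, 6.72% of T-ALL#1 and 25.2% of T-ALL#2 cells. Cells with both Cd4 and Cd8a were 49.7%, 3.60%, 41.7% and 12.3% in that order, and cells with none of the 3 made up 63.1% of preleukemic thymus. Thinned to 2000 UMIs, the shares with Il2ra alone were 1.83%, 3.98%, 9.72% and 19.9%, so that preleukemic thymus and T-ALL#1 changed order, and those with both coreceptors were 32.3%, 1.26%, 16.6% and 1.72%. Among the B or myeloid-like cells, Cd4 was detected in 20.0% and Cd8a in 25.0% in WT, and Il2ra in 26.7% in T-ALL#1, against 71.4%, 67.9% and 66.0% of all cells. In T-ALL#2 Cd4 stood at 10.5 CPM in droplets of at most 100 UMIs and at 13.8 in cells, with overlapping intervals. Cd8a (89.3 and 117) and Il2ra (133 and 184) were higher in cells, with intervals apart. The part of free RNA in the classes was not tested. Absence of a transcript in a shallow cell is not absence of the protein, so these are classes of detection.

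In non-cycling cells, with the same blocked test, 465 of 8696 genes (5.35%, 3.19% as higher and 2.16% as lower) differed between cells with Il2ra alone and cells with Cd4 and Cd8a, and 1 of the 9 genes passed. Trp53inp1 was counted at 167 CPM with Il2ra alone and 576 with both coreceptors in WT, at 219 and 423 in preleukemic thymus, at 246 and 465 in T-ALL#1 and at 76.9 and 161 in T-ALL#2. Cells with Il2ra alone were 1.89-fold to 3.45-fold lower in all 4 libraries, and the fitted log2 change was -1.04 ± 0.16 (adjusted p = 0.00933). The call was lost without the replicate block (adjusted p = 0.558), where 0 genes passed in edgeR and 767 had an unadjusted p under 0.05, and without preleukemic thymus, where 8 genes passed. WT entered with only 34 cells of the first class. The added test of leukemia against the other thymi called 0 of the 9 genes and 29 of 8696 genes here (0.333%), with 654 at an unadjusted p under 0.05.

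Gadd45a was counted at 6.18 CPM (2 UMIs) with Il2ra alone and 47.2 with both coreceptors in WT, at 20.4 and 64.0 in preleukemic thymus, at 12.003 and 25.7 in T-ALL#1 and at 32.6 and 35.7 in T-ALL#2. The first 3 libraries had intervals apart and T-ALL#2 did not. The log2 change of -1.01 ± 0.32 did not pass (adjusted p = 0.0929). Mdm2 was lower with Il2ra alone in each library, at 58.7 and 111 CPM in WT, 65.9 and 101 in preleukemic thymus, 42.5 and 67.6 for T-ALL#1 and 35.9 and 53.5 in T-ALL#2, and narrowly did not pass (log2 change -0.57 ± 0.15, adjusted p = 0.0526). Of the 16 p53 targets tested, Rps27l rose (0.85 ± 0.14) and Fas (-2.20 ± 0.34) and Btg2, an antiproliferative gene (-0.97 ± 0.15), fell. Scaled to library totals alone, 158 genes were higher and 359 lower in place of 277 and 188, and Mdm2 was called with Trp53inp1.

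Gadd45g varied by class in T-ALL#1. In its non-cycling cells the gene stood at 16.1 CPM (11.6 to 21.9) with none of the 3 transcripts, 109 (90.2 to 130) with Il2ra alone, 95.8 (88.2 to 104) with Cd8a but no Cd4, 144 (136 to 152) with both coreceptors and 106 (88.7 to 125) with Cd4 but no Cd8a. The class with none of the 3 was low, with its interval apart from the other 4. Among the cells with both coreceptors, those with Il2ra held 153 CPM (143 to 163) and those without 107 (91.7 to 125). In T-ALL#2 the 5 classes ran from 35.6 to 55.4 CPM and all their intervals overlapped, and in WT they ran from 6.27 to 15.4 CPM. The preleukemic classes ran from 1.75 to 9.84 CPM, the highest of them on 2 UMIs.

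Gadd45b had its WT maximum in the class with none of the 3 transcripts, at 35.7 CPM (26.6 to 46.8), against 10.9 (8.12 to 14.3) in cells with both coreceptors. In T-ALL#2 it ran from 36.6 to 53.5 CPM with overlapping intervals, and in preleukemic thymus and T-ALL#1 no class passed 14.8 CPM. T-ALL#2 and WT had overlapping intervals in cells with none of the 3, and in cells with both coreceptors T-ALL#2 was the higher, at 47.0 CPM.

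**Figure D5:**
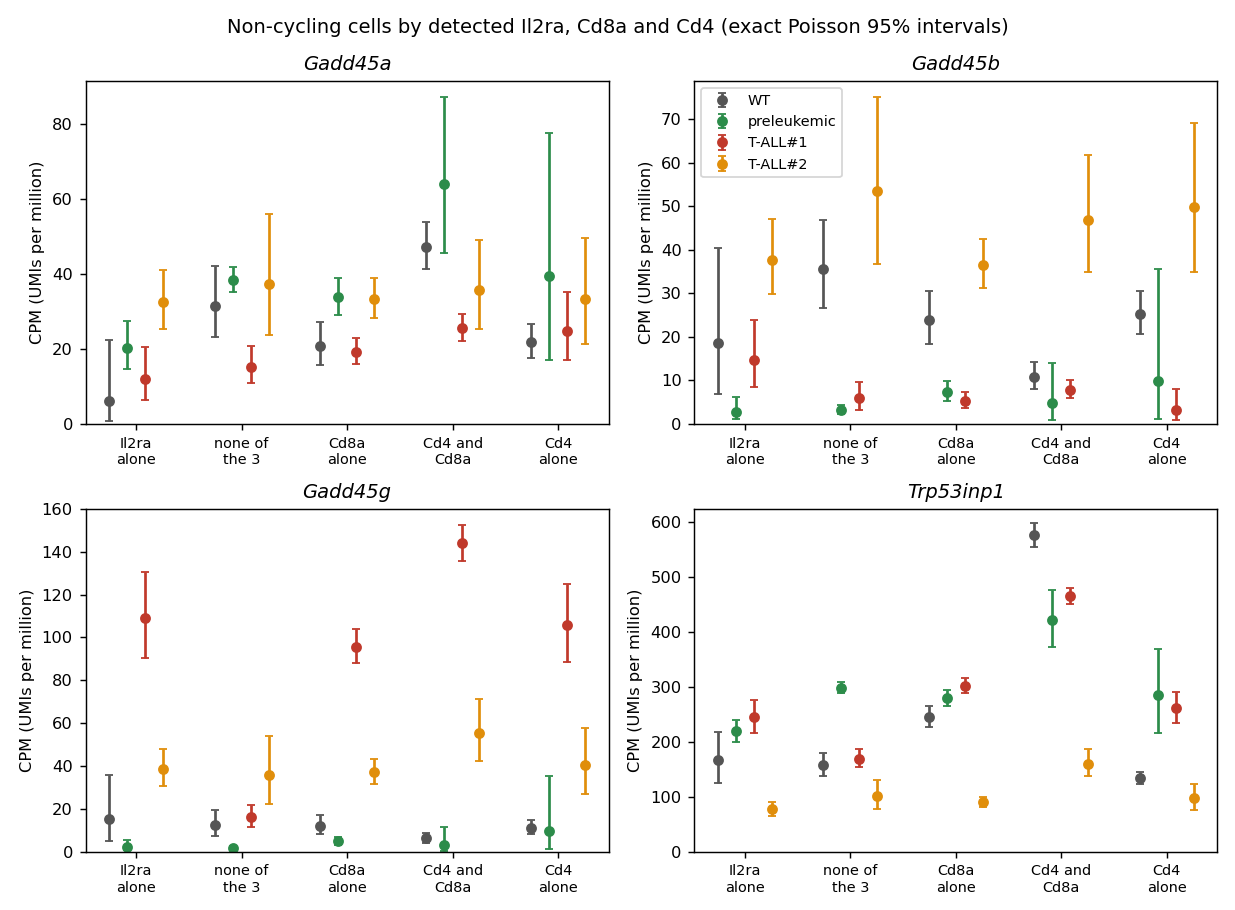
Level in CPM (vertical axis, from 0) of Gadd45a, Gadd45b, Gadd45g and Trp53inp1 in non-cycling cells by detected Il2ra, Cd8a and Cd4 (horizontal axis), 1 colour per library, with exact Poisson 95% intervals. Gadd45g in T-ALL#1 drops to 16.1 CPM in cells with none of the 3, and Trp53inp1 peaks in cells with both coreceptors in every library.

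Within 1 class the cycling states still differed. In cells with Cd4 and Cd8a, 51.9% of 9751 genes were called between the states, 24.4% as higher and 27.4% as lower in cycling cells, and 8 of the 9 genes passed. Gadd45a (-1.21 ± 0.17), Gadd45b (-1.02 ± 0.24), Gadd45g (-1.54 ± 0.31, adjusted p = 0.00309), Mdm2 (-0.35 ± 0.11), Trp53inp1 (-1.51 ± 0.13) and Sesn1 (-1.04 ± 0.16) fell in cycling cells. In the fit Trp53 (0.32 ± 0.11) and Phlda3 (1.30 ± 0.28) rose. Trp53 rose in the leukemias alone, at 202 and 163 CPM in T-ALL#1 and 206 and 149 in T-ALL#2, cycling before non-cycling. It was at 124 and 127 in WT and 130 and 136 in preleukemic thymus. Phlda3 was higher in cycling cells of each library. Its non-cycling level rested on 1 UMI in preleukemic thymus and 10 each in WT and T-ALL#2. Gadd45g was at 29.2 CPM in cycling and 144 in non-cycling cells of this class in T-ALL#1, at 23.4 and 55.4 in T-ALL#2, at 3.51 and 6.27 in WT, and at 5.79 and 3.20 in preleukemic thymus on 8 and 2 UMIs. Its call was lost without T-ALL#1, and Mdm2 and Trp53 each passed in 5 of 12 alternative settings. After thinning, which left WT and T-ALL#1, only Trp53inp1 was called (-0.61, adjusted p = 0.0302). Without the replicate block Gadd45a, Trp53inp1 and Sesn1 passed as lower (1399 genes in all), and scaled to library totals alone 1871 genes were higher and 3434 lower in place of 2383 and 2676.

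In cells with Il2ra alone, 34.9% of 8993 genes were called, 18.4% as higher and 16.5% as lower in cycling cells, and 5 of the 9 genes passed, all as lower. The count of 3141 genes was 1853 without preleukemic thymus, 2061 without T-ALL#1 and 653 after thinning. Gadd45g had the largest change of the 5 (-2.34 ± 0.35, adjusted p = 2.67e-04), at 10.5 CPM in cycling and 109 in non-cycling cells of T-ALL#1 and at 12.1 and 38.7 in T-ALL#2. The preleukemic library held 1.94 and 2.37 CPM on 7 and 5 UMIs, and WT 0 and 5 UMIs. The other 4 were Gadd45a (-0.99 ± 0.24), Gadd45b (-1.26 ± 0.33), Trp53inp1 (-1.28 ± 0.13) and Sesn1 (-0.91 ± 0.17). In WT Gadd45a went the other way, at 6.62 CPM in cycling and 6.18 in non-cycling cells on 3 and 2 UMIs. Gadd45b rested on 2 and 6 UMIs in WT, 4 and 6 in preleukemic thymus and 9 and 16 in T-ALL#1, cycling before non-cycling. Without the replicate block only Trp53inp1 of the 9 passed (adjusted p = 0.0399), with 615 genes in all. After thinning, WT had too few cells to enter, and Gadd45g and Trp53inp1 were called of the 5 genes left to test.

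The p53 targets were counted within each class as well. In cells with Cd4 and Cd8a, 18 targets were tested, and Rps27l, Aen and Bax rose while 6 fell, led by Bbc3 (-1.51 ± 0.21) and Btg2 (-1.17 ± 0.12). In cells with Il2ra alone 16 were tested, Rps27l, Aen and Bax rose again and 4 fell, led by Btg2 (-1.19 ± 0.13) and Xpc (-0.91 ± 0.17). Of all genes 24.4% rose and 27.4% fell in the first class, and 18.4% rose and 16.5% fell in the second. The medians of the targets were -0.28 and 0.03 beside -0.07 and -0.04 over all genes.

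Between libraries, 24 targets could be compared by the 2-fold rule. In preleukemic thymus 5 were lower than in WT (Cdkn1a, Fas, Plk2, Plk3 and Ephx1) and 0 higher, beside 6.88% and 6.09% of all genes. Fas stood at 81.6 CPM in WT, 19.5 in preleukemic thymus, 9.97 for T-ALL#1 and 2.95 in T-ALL#2. Over WT, 1 target was higher in both leukemias (Bax) and 3 were lower (Fas, Tnfrsf10b and Ephx1), beside 4.57% and 14.9% of all genes. Over preleukemic thymus 3 were higher (Cdkn1a, Bax and Plk2) and 1 was lower (Xpc), beside 4.10% and 13.9%. Both leukemias held more Bax, the pro-apoptotic pore protein, at 235 and 251 CPM against 107 in WT and 113 in preleukemic thymus. Of the 12 regulators Cdkn2a alone was higher in both leukemias than in both other thymi, at 9.61 and 13.4 CPM against 0.50 in WT and 1.18 in preleukemic thymus. Against preleukemic thymus alone, Trp53bp1 was lower in both.

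Over 39 sums of at least 20 cells, by library, class and state, the genes most like each of the 9 in log level among 7757 genes are given as a description, since these sums share animals, depth and class sizes. Gadd45b ran most like Nfkbia (Pearson r = 0.86), Dad1 and Relb, and Gadd45g most like Dap (0.86), Dennd2d and Agfg1. Gadd45a ran most like Epc2 (0.85), Hmbox1 and Top2b, Mdm2 like Tsc22d4 (0.93), Creb1 and Pkn2, Trp53inp1 like Rhoh (0.94), Tnrc6b and Prrc2c, and Sesn1 like Kmt2c (0.94), Slc15a2 and Stk4. The nearest genes were less close for Trp53 (Stc2, Mdn1 and Eef1g, 0.78 at most), Ccng1 (Arpc2, Slfn1 and Vps37b, 0.81 at most) and Phlda3 (Znhit3, Metrn and Nt5dc2, 0.85 at most). Only genes with a mean of at least 10 CPM over these sums could be listed, so Phlda3, at 8.29, could not be. None of the rest of the 9 was among the 3 nearest genes of another.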

How the data were processed

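The deposited matrices hold raw counts of UMIs per gene and barcode, made by the authors with Cell Ranger (version 3.0.2 for 3 libraries and version 4 for T-ALL#2 per the file headers, build mm10 per the submitters' processing notes). The first 3 hold called cells. For T-ALL#2 all barcodes were deposited, and those with at least 3416 UMIs (1/10 of the 99th percentile of the top 10000) were taken as cells. Version and cell calling cannot be told apart from the animal. Groups follow the labels.

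CPM values carry exact Poisson and shares Clopper-Pearson 95% intervals, which cover counting error only and not the spread between animals. UMI sums per library and state were tested with edgeR 4.0.16 (TMM, filterByExpr, robust quasi-likelihood) in R 4.3.3, with Benjamini-Hochberg adjustment over all genes tested and a threshold of 0.05. The library was the block because both sums of a library come from 1 animal. States and classes were set on the same cells that were summed, so genes of the definitions differ by construction. The test was checked on simulated counts. The alternatives were RLE factors, no filter, DESeq2 1.42.0, no block, each library left out, an upper limit on genes per cell, thinning to 2000 UMIs, cycling called from 5 of 20 cell-cycle genes, and for levels also equal weight per cell, TMM, a mitochondrial limit of 5%, no filter and a 1.5-fold rule. Library totals without factors and the 2 tests of leukemia against the other thymi were added after seeing the data. Doublets were treated by the upper limit alone. B or myeloid-like cells held at least 3 of 4 markers of one type. The level of 1 marker is not reported here.

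The 9 genes and the lists were chosen with earlier results of these data known. All 9 genes are named, with the 4 largest changes past the threshold in each pathway list and the 3 genes most like each of the 9. Gene positions are from GENCODE M21, in which 99.6% of the identifiers were found.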

Additional observations from a re-analysis of the deposited data

Results flagged for a closer look

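Values below are differences of log2 differences within libraries, listed where the libraries of one group moved one way and those of another the opposite way. None of these pairs of groups was tested, since WT and the preleukemic thymus are 1 library each, and a value near 0 changes sign easily.

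For cycling minus non-cycling cells, Gadd45g was at -0.99 in WT, 0.62 in preleukemic thymus and -2.64 and -1.27 in T-ALL#1 and T-ALL#2, so that the preleukemic value less WT was 1.61 and the mean of the leukemias less the preleukemic value was -2.57. The preleukemic value rests on 77 and 60 UMIs with overlapping intervals. Trp53 was at -0.17 in WT against 0.07 in preleukemic thymus (a difference of 0.24) and 0.26 and 0.35 in the leukemias (0.47 for their mean). Ccng1 was at -0.43 in WT and -0.52 in preleukemic thymus against 0.15 and 0.17 in the leukemias, which gave 0.59 over WT and 0.67 over preleukemic thymus. The added test of both leukemias against both other thymi gave 0.54 ± 0.17 for Ccng1 (SE, edgeR adjusted p = 0.331).

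For cells with Il2ra alone minus cells with Cd4 and Cd8a, Gadd45g was at 1.30 in WT on 5 and 30 UMIs, against -0.43 in preleukemic thymus (a difference of -1.73) and -0.40 and -0.52 in the leukemias (-1.76). Gadd45b was at 0.77 in WT and -0.76 in preleukemic thymus, a difference of -1.53 that rests on 6 and 3 UMIs in the latter. Ccng1 was at -0.25 in WT, 0.08 in preleukemic thymus (0.33) and 0.16 and 0.14 in the leukemias (0.40). All of these intervals between classes overlapped except that of Gadd45g in T-ALL#1.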

How the results depend on the processing

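Without the replicate block the cycling comparison called 0 of the 9 genes, 0 of the p53 targets and 922 genes, the comparison of classes 0 of the 9 and 0 genes, and the cycling comparison within classes 3 of the 9 (Cd4 and Cd8a) and 1 of the 9 (Il2ra alone). Thinning to 2000 UMIs gave 3857 genes in the cycling comparison. It gave 1 of the 9 within Cd4 and Cd8a cells (WT and T-ALL#1 alone had enough cells) and 2 of the 9 within Il2ra-only cells. In both leukemias over WT it gave 1 of the 9 (Gadd45g), beside 1847 of all genes. In the comparison of classes library totals alone gave 2 of the 9, no low-count filter 4 of the 9 and 1255 genes, and the cell-cycle list 196 genes. Leaving out 1 library at a time gave 0 to 2 of the 9 and 8 to 566 genes there, with 8 genes without preleukemic thymus and 138 without T-ALL#2, and 5 to 7 of the 9 within Cd4 and Cd8a cells, lowest without T-ALL#1. With mitochondrial shares under 5%, only Gadd45b was lower in preleukemic thymus. The other 84 of 105 recomputed counts stayed within 1.5 times. Genes called within classes, not among these counts, were 570 (Cd4 and Cd8a) and 653 (Il2ra alone) after thinning, in place of 5059 and 3141. Of 180 recomputed levels of the 9 genes 112 moved beyond the interval, and of 72 shares of cells 37 did.

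Sign changes touched uncalled values alone. Ccng1 between cycling states was -0.16 (library totals alone), -0.0185 (RLE), -0.0187 (DESeq2), -0.00175 (upper limit) and -0.0613 (cell-cycle list), and -0.12 to 0.10 with 1 library left out. Within Cd4 and Cd8a cells it was 0.00918 (RLE), 0.00858 (upper limit) and 0.44 (thinned), and -0.22 to 0.12 with 1 library left out, and within Il2ra-only cells 0.0170 (cell-cycle list) and -0.34 to 0.13. Between classes it was -0.0759 (thinned) and -0.0621 (cell-cycle list), and Gadd45g was -0.33 to 0.0107 with 1 library left out. The causes were not tested. Of 423 recomputed changes of the 9 genes, 41 lost a call and 13 gained one. With 1 animal in WT and in the preleukemic group, no difference between libraries has a replicate check.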

Other observations

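The immediate early genes, which also respond to tissue dissociation, differed between libraries in their own ways. Fosb stood at 2.83 CPM in WT, 10.5 in preleukemic thymus, 84.8 for T-ALL#1 and 59.6 for T-ALL#2, and Fos at 17.3, 20.1, 94.1 and 45.4 in the same order. Both passed the 2-fold rule as higher in both leukemias than in both other thymi. Egr1 went the other way against WT, at 89.6, 17.1, 23.7 and 29.6 CPM. Atf3, a stress factor, was at 2.98 CPM in T-ALL#2, where Gadd45b was also highest, and at most 0.125 in the other libraries. Within libraries 5 of the 9 immediate early genes tested fell in cycling cells (Fosb, Junb, Fos, Jun and Hspa1a) and none rose. Of all genes 26.6% fell and 26.1% rose. In cells with Il2ra alone 6 of 9 fell, where 16.5% of all genes fell and 18.4% rose. Egr1 rose there by 0.56 ± 0.21 on the log2 scale (edgeR adjusted p = 0.0463). Of the 10 partners of Gadd45 and stress kinases, none passed the 2-fold rule between libraries.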
